A study of Mus musculus with 2 samples.

Results

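The regions described here are 1013 short stretches of mouse chromosomes 1 to 19 over which a replication timing score fell from clearly early to clearly late. They were found in the authors' early-against-late score, which is smoothed over 300 kb. A run was a series of consecutive positions with scores from -0.5 to 0.5, ended by any gap over 300 kb. A run was kept when it was shorter than 500 kb and when the position directly before it and the position directly after it lay above 0.5 on the early side and below -0.5 on the late side. Of 1902 such runs on the autosomes, 1013 met this rule (53.3%). They made up 93.5% of the 1084 passages from early to late, the other 71 passages being 500 kb or longer. A further 334 runs returned to the early side and 441 to the late side, and 43 had no scored position next to them on at least 1 side. The regions were thus chosen by the score itself, so their lengths and scores are given as a description. Their genes and promoter sequences took no part in the choice.

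All values come from a single line, 46C mouse embryonic stem cells (strain 129P2/Ola), cultured on gelatin with leukemia inhibitory factor. After 2 h in 50 µM bromodeoxyuridine (BrdU), a thymidine analogue built into new DNA, the cells were fixed, and those in early and in late S phase were collected by their DNA content. DNA of 10000 cells was sheared to 100 to 600 bp, its BrdU-containing part was isolated by antibody, and this was amplified for Ion Torrent sequencing. There was 1 library per fraction and 1 score for the pair, so no replicate error, no test and no p-value can be had, and the depth of reads is unknown. That a positive score means early is an assumption, taken from the word order in the deposited table's name. The score has no stated unit, log base or zero point. The autosomes held 364448 scored positions at a median spacing of 5776 bp, with a median score of -0.30.

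Mammalian chromosomes are copied in domains in which many replication origins fire at about the same time. A timing transition region is the stretch between an early and a late domain. It is copied by forks that run out of the early domain, by origins that fire one after another along the stretch, or by both. Early domains are mostly rich in active genes and open chromatin, and late domains are mostly gene-poor, AT-rich and often attached to the nuclear lamina. In mammalian genomes CG is rare outside CpG islands, which cover the promoters of most housekeeping genes and of many developmental regulators.

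The promoters below belong to the nearest protein-coding genes on either side of the steepest regions for which a sequence was at hand for both genes. They are shown as examples and do not give the range of what faces a sharp transition. The sequences are from RefSeq, assembly GRCm38.p6, whose chromosomes are those of mm10. Each covers 250 bases before to 50 bases after the start of the gene, 300 bases in all, 5′ to 3′ on the gene's own strand, and every CG is in capitals. The steepness rank counts all 1013 regions. Rank 2 lies on chromosome 2 between Shf (early side, chr2:122369098-122369397, minus strand) and Slc28a2b (late side, chr2:122484691-122484990, plus strand). Rank 3 lies on chromosome 11 between Trpv3 (early side, chr11:73267270-73267569, plus strand) and Olfr1 (late side, chr11:73399446-73399745, minus strand). Rank 4 lies on chromosome 9 between Acpp (early side, chr9:104337673-104337972, minus strand) and Cpne4 (late side, chr9:104569405-104569704, plus strand). Rank 6 lies on chromosome 14 between Dnajc3 (early side, chr14:118937682-118937981, plus strand) and Hs6st3 (late side, chr14:119138015-119138314, plus strand).
Shf: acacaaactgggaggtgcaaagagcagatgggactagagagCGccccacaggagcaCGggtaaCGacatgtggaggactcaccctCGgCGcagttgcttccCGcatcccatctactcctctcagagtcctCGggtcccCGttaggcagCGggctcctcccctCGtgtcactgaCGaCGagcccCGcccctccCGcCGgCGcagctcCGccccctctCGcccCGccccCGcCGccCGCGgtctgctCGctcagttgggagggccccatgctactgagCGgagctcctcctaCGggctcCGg
Slc28a2b: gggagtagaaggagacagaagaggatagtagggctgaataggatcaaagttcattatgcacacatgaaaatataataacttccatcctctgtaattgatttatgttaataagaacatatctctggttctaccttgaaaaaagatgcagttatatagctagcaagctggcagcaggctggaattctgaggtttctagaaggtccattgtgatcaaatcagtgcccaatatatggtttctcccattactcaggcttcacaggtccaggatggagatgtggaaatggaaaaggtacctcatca
Trpv3: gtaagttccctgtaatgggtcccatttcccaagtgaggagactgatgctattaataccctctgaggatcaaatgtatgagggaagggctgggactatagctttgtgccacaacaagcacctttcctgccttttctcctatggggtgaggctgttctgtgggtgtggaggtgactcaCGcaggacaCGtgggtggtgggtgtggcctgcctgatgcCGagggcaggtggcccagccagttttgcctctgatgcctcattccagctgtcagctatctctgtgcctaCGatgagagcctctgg
Olfr1: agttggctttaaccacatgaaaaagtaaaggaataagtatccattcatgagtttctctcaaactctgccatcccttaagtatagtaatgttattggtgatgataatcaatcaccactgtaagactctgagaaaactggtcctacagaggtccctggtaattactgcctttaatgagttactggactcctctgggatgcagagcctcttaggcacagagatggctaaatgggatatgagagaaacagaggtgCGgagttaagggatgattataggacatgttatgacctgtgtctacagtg
Acpp: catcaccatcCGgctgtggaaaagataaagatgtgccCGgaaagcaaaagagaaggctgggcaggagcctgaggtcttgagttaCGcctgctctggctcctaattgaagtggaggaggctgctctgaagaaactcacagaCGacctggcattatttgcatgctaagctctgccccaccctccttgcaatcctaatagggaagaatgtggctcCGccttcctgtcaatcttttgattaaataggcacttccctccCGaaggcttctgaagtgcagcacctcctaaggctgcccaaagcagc
Cpne4: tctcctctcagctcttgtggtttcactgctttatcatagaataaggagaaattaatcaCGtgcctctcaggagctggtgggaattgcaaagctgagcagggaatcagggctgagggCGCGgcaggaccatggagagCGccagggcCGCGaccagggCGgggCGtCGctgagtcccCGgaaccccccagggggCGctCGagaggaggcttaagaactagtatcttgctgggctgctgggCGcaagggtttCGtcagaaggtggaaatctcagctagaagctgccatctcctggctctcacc
Dnajc3: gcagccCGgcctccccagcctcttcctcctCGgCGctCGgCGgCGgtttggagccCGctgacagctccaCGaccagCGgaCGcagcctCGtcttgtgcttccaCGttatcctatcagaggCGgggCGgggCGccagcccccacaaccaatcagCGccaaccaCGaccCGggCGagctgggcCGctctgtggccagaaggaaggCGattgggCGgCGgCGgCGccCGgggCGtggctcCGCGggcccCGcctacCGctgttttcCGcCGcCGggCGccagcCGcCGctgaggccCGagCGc
Hs6st3: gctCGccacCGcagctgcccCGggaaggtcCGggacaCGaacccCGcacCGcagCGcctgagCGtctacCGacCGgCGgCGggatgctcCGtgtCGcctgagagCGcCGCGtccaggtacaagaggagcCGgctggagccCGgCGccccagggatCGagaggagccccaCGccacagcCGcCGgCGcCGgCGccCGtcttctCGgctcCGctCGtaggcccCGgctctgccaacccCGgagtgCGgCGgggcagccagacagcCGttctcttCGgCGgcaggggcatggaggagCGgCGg
The promoter of Shf, a signalling adaptor gene, held 27 CG, and that of Slc28a2b, a nucleoside transporter gene across the transition, held 0. Trpv3, a warmth-gated ion channel of skin, had 4 CG against 1 for the olfactory receptor gene Olfr1. Acpp, which encodes prostatic acid phosphatase, had 6 CG on the early side, fewer than the 14 of Cpne4, a copine gene, on the late side. Dnajc3, a chaperone of the endoplasmic reticulum, and Hs6st3, a heparan sulfate sulfotransferase, both had CpG island promoters, with 39 and 41 CG. The pairs ran from a large difference in favour of the early side to nearly none and to the reverse. Of 16456 autosomal promoters of protein-coding genes with a sequence, 15640 held at least 1 CG, and the median was 14.

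Across the regions the score dropped over a short distance and then levelled off. Aligned at the point where it crosses 0, the median over regions was 1.01 at 300 kb on the early side, 0.60 at 100 kb and 0.33 at 50 kb. On the late side it was -0.32 at 50 kb, -0.58 at 100 kb and -1.09 at 300 kb. Further out it moved back, to 0.20 at 1000 kb on the early side and to -0.81 at 1000 kb on the late side. At 500 kb on the early side 825 of 1005 regions with a score there were still above 0. At 500 kb on the late side 855 of 1001 were below 0. For the rest, at least 1 further timing change lay within that distance.

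**Figure D1:**
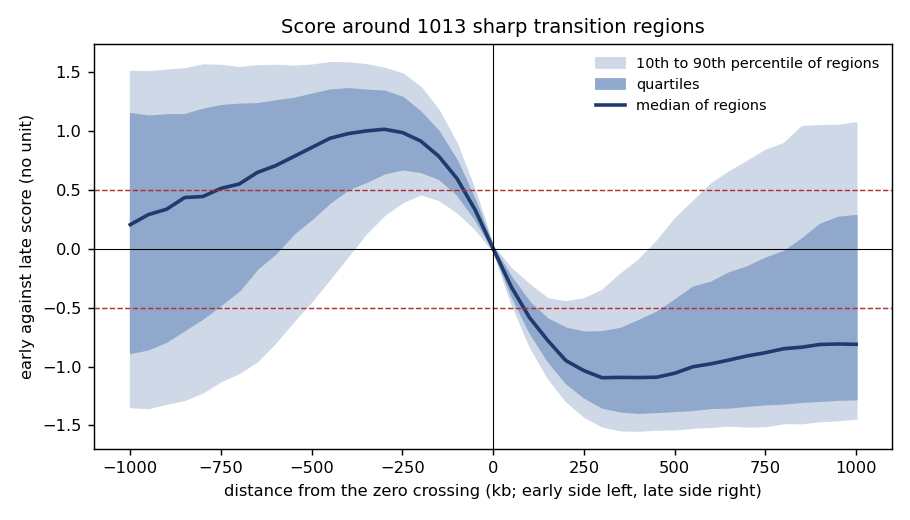
Score (no unit) against distance from the zero crossing in kb, with the early side on the left, over the 1013 regions. The line is the median, the dark band the quartiles and the light band the 10th to 90th percentile of regions, and dashed lines mark -0.5 and 0.5. The median falls from 1.01 at 300 kb on the early side to -1.09 at 300 kb on the late side, while the bands widen on both sides.

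The median run length was 161 kb, with quartiles of 127 and 230 kb. Of the runs 69 were under 100 kb, 594 were between 100 and 200 kb and 350 were 200 kb or more, of which 53 reached 400 kb. The smoothing is wider than most of them: 882 of 1013 runs were shorter than 300 kb. A step in the unsmoothed signal would be spread by that smoothing, so the run length is an attribute of the smoothed score and not the size of the underlying transition. Steepness, the score difference between both flanking positions per 100 kb between them, had a median of 0.59 and quartiles of 0.43 and 0.73. Its range was 0.20 to 1.95. The score crossed 0 once in 992 regions and 3 times in 21. In 31 regions neighbouring positions lay more than 50 kb apart, and 1 region, on chromosome 8, rested on a single in-band position.

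**Figure D2:**
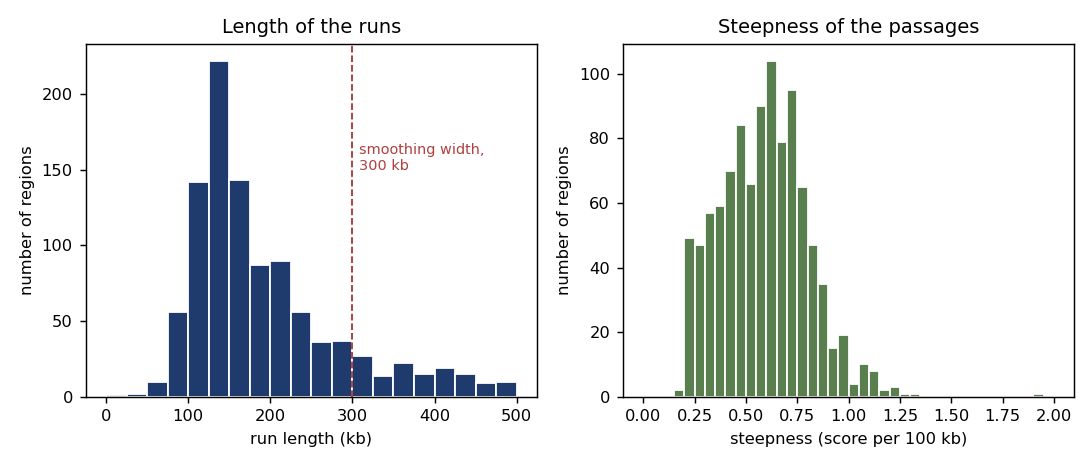
Number of regions by run length in kb (left, bins of 25 kb, the dashed line at the 300 kb smoothing width) and by steepness in score per 100 kb (right). Most runs are shorter than the smoothing width, with a tail up to the 500 kb limit of the rule.

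The limit of 500 kb cut through a thin tail. The longest runs kept were 489 kb on chromosome 1 between Maip1 and Aox2, 494 kb on chromosome 1 between Efcab2 and Tfb2m, and 495 kb on chromosome 3 between Gdap2 and Trim45. The shortest passages left out were 512 kb on chromosome 8 between Myo16 and Rab20, 518 kb on chromosome 1 between Arfgef1 and A830018L16Rik, and 523 kb on chromosome 8 between Dctd and Aga. The runs on both sides of the limit are close in length.

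Most regions led into sequence that scored at least 1.0 on the early side and at most -1.0 on the late side. Going outward from the zero crossing, 773 regions (76.3%) reached a score of 1.0 before the score returned across 0, at a median of 189 kb. On the other side 810 regions (80.0%) reached -1.0, at a median of 196 kb. Both were reached in 614 regions (60.6%), where the distance from 1.0 to -1.0 had a median of 414 kb, quartiles of 322 and 585 kb and a lowest value of 127 kb. Only 1.0 was reached in 159 regions, only -1.0 in 196, and neither in 44.

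The sharp regions bordered nearly all timing domains that lie between successive passages. Of the early domains 456 (86.7%) had a sharp region at both borders, with a median length of 1069 kb, quartiles of 610 and 2115 kb and a highest value of 12986 kb. Another 70 early domains had 1 sharp border. Of the late domains 462 (87.5%) had sharp borders on both sides, with a median of 1615 kb, quartiles of 818 and 3421 kb and a highest value of 22744 kb. Another 62 late domains had 1 sharp border and 4 had none. The domains were cut at the passages, of which 93.5% were sharp, so these shares largely restate that count. The early side lay at the lower coordinate in 501 regions and at the higher coordinate in 512 (49.5%, exact 95% binomial interval 46.3 to 52.6%, for the first). Passages along a chromosome alternate in direction, which keeps these numbers nearly equal, so the interval does not measure a preference.

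All 19 autosomes carried sharp regions, 76 on chromosome 1 and 34 on each of chromosomes 17 and 19. Per 10 Mb there were 3.33 on chromosome 12, the lowest, and 5.84 on chromosome 19, the highest. Over the whole autosomal span of 2401 Mb there was 1 region per 2.37 Mb, and the runs covered 8.09% of it. Between regions per 10 Mb and protein-coding genes per Mb, over 19 chromosomes that share both libraries, Pearson's r was 0.0071 and Spearman's rho -0.10. Chromosome 7, with 14.2 protein-coding genes per Mb, had 4.15 regions per 10 Mb, and chromosome 18, with 5.82 genes per Mb, had 4.80.

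Genes were denser on the early side than on the late side. The 500 kb beyond the run held 12.9 protein-coding genes per Mb on the early side and 5.03 per Mb on the late side, a ratio of 2.57. The runs themselves held 6.85 per Mb, and all autosomes 8.59. By distance from the zero crossing, gene density was highest from 400 to 300 kb on the early side, at 14.4 per Mb. It was 8.30 per Mb in the last 100 kb before the crossing and 5.68 in the first 100 kb after it, and lowest, at 4.66 per Mb, from 300 to 400 kb on the late side. The windows are not free of other transitions, since 479 early and 366 late flanks hold part of another in-band run.

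Region by region, 854 of 1013 (84.3%, exact 95% binomial interval 81.9 to 86.5%) had more protein-coding genes in the early flank. The late flank held more in 100 regions (9.87%, 8.10 to 11.9%), and 59 had equal numbers. The median was 5 genes on the early side and 1 on the late side. The late flank was empty in 285 regions (28.1%) and the early flank in 10. Flanks of neighbouring regions can overlap, so regions are not independent and the intervals cover counting over regions only.

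**Figure D3:**
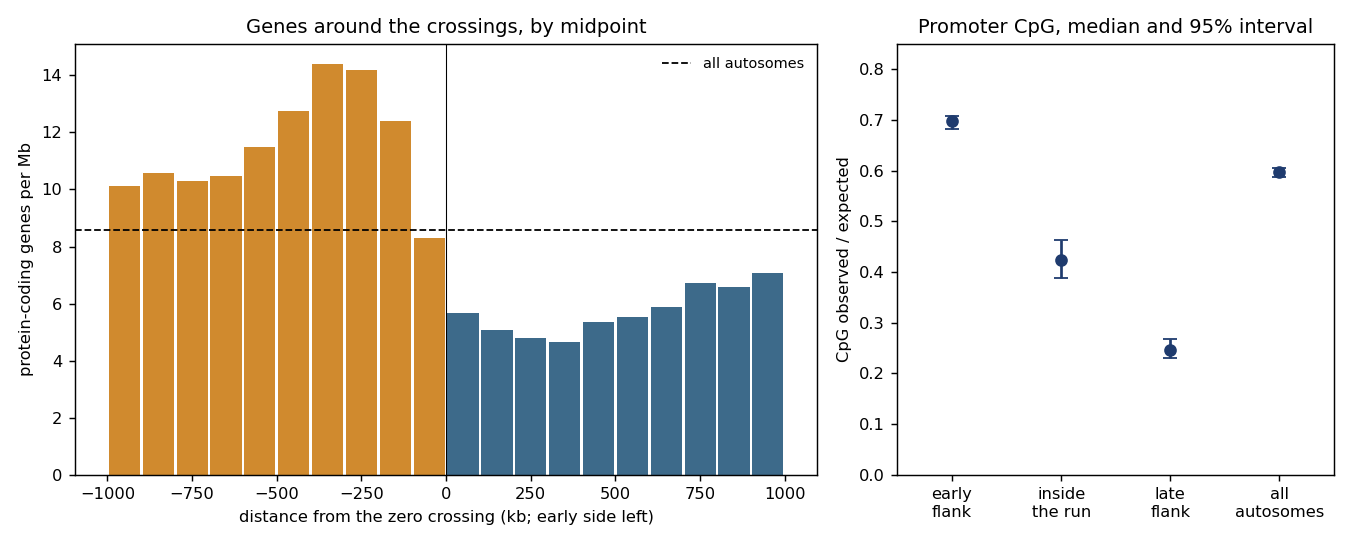
Left, protein-coding genes per Mb in 100 kb bins by distance from the zero crossing in kb, early side on the left, with all autosomes (8.59 per Mb) as a dashed line. Right, the median CpG observed over expected ratio of promoters in each flank, inside the runs and on all autosomes, with 95% order-statistic intervals over genes. Density peaks at 14.4 per Mb on the early side and is below the autosomal level from 100 kb before the crossing onward, and the ratio falls from 0.698 to 0.246.

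The kinds of gene differed too. The median gene length was 22.0 kb in the early flank, 23.7 kb inside and 15.1 kb in the late flank, against 17.5 kb for all autosomal genes. The late flank had more genes at the long extreme as well: 7.80% of its genes were 300 kb or longer, against 0.956% in the early flank, 3.46% inside and 2.58% of all. The olfactory (Olfr) and vomeronasal (Vmn) receptor genes, families of smell and pheromone sensing that lie in large arrays, made up 21.7% of late flank genes (490 genes), 10.3% of genes inside (137) and 2.13% in the early flank (118), against 7.07% of all.

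Promoter CpG content was highest on the early side, lower inside the runs and lowest on the late side. The CpG observed over expected ratio compares the number of CG in the 300 bases with the number the C and G content would give by chance. Its median was 0.698 in the early flank (95% order-statistic interval 0.682 to 0.708), 0.424 inside (0.389 to 0.464) and 0.246 in the late flank (0.231 to 0.269). For all autosomal genes it was 0.597 (0.587 to 0.606). A sequence was at hand for 80.5 to 81.9% of the genes of each set, without chromosome 18. A ratio of 0.6 or more, as in CpG islands, was found in 59.2% of early flank promoters, 38.0% inside and 24.8% in the late flank, against 49.8% of all. The median number of CG was 18, 8 and 3, as the printed promoters of Shf and Slc28a2b show at their extreme, and the median GC content was 58.7%, 52.3% and 47.2%. Without the Olfr and Vmn genes, the late flank ratio was 0.351.

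Of the other motifs searched, TATAAA, the TATA box, ran the other way, and CCAAT, the CCAAT box, had similar shares throughout. TATAAA, on either strand, stood in 10.7% of early flank promoters, 17.7% of those inside and 23.6% of those in the late flank, against 13.5% of all promoters of the same length. CCAAT, on either strand, stood in 38.5%, 42.0% and 39.8%, against 39.1% of all. Neither motif contains CG. TATAAA is made of A and T alone, and the GC content was lower in the same order. Its part in these shares was not tested.

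Steeper regions had more genes on the early side. With the regions divided by steepness into 4 groups, the least steep group had 10.9 protein-coding genes per Mb in the early flank, the next groups 11.6 and 13.7, and the steepest group 15.4. The late flank had 4.55, 5.16, 4.85 and 5.55 per Mb in the same order, with no such progression. The median run lengths were 305, 190, 144 and 115 kb, so the groups differ in length as well. The zero crossing lay inside a gene in 101, 102, 75 and 74 regions of these groups, which hold 254, 253, 253 and 253 regions. Steepness went with how far the score departed from 0 at 300 kb from the crossing. The median there was 0.79, 0.96, 1.10 and 1.23 on the early side, and -0.87, -1.01, -1.21 and -1.26 on the late side. Steepness is taken only from the positions directly beside the run. Points 300 kb out share the smoothing with them and can fall inside the longest runs, and the tie was not tested. The 71 passages of 500 kb or more, set beside them, had 11.4 genes per Mb in the early flank and 6.93 in the late flank, with 7.38 inside. These differences between kinds of region were not tested.

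The steepest region of all lay on chromosome 1, at 171514591 to 171560627. Its flanking scores were 0.61 and -0.51 over 57.5 kb, a steepness of 1.95 per 100 kb, and the score fell at each of the 10 positions in turn: 0.61, 0.50, 0.25, 0.12, 0.0087, -0.098, -0.19, -0.29, -0.40 and -0.51. It faces Alyref2, of the mRNA export factor family, on the early side (0.73 at its midpoint) and Ly9, an immune cell receptor of the SLAM family, on the late side (-0.94). Itln1, an intelectin gene, has its midpoint inside, and Cd244a, another SLAM family receptor gene, overlaps the run. There were 26 protein-coding genes in the early flank and 10 in the late flank. The late stretch beyond it is short: the score was back at -0.04 at 300 kb and at 0.91 at 400 kb from the crossing. Among the 10 steepest regions no other had a positive score at any of the 5 steps of 100 kb on its late side.

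The next ranks had steepness values between 1.13 and 1.31 per 100 kb. Rank 2, at 122398507 to 122467400 on chromosome 2, holds Slc28a2, a nucleoside transporter gene next to the Slc28a2b printed above, and has 15 genes in its early flank and 7 in its late flank. Rank 3, at 73312682 to 73387275 on chromosome 11, holds Aspa (aspartoacylase), Spata22, a meiosis gene, and the olfactory receptor genes Olfr20 and Olfr376. It has 14 and 13 genes, with the receptor array beginning on its late side. Rank 4, at 104384169 to 104459060 on chromosome 9, holds no protein-coding gene midpoint, and rank 6, at 119062266 to 119137066 on chromosome 14, is overlapped by Uggt2, a folding sensor gene of glycoproteins. Hs6st3, whose CpG-rich promoter is printed above, begins 0.450 kb beyond the late end of that run; its start scored -0.46 and its midpoint -1.35.

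Rank 5, at 102637224 to 102712376 on chromosome 7, cuts through an olfactory receptor array. Olfr553 faces it on the early side (0.76) and Olfr33 on the late side (-0.48), with Olfr554 to Olfr558 and Trim68, a ubiquitin ligase gene, inside. The late flank held more genes there than the early flank, 26 against 15. Rank 7 runs from Stk31, a kinase gene of the germ line (1.17), to Npy, which encodes neuropeptide Y (-1.27), on chromosome 6. Rank 8 runs from Ttc14 (0.72) to Pex5l (-0.24) on chromosome 3, with 0 genes in its late flank, so that Pex5l lies 562 kb away. Rank 9 runs from Fam180a (1.29) to Mtpn, the myotrophin gene (-0.70), on chromosome 6. Rank 10 runs from Fezf2, a forebrain transcription factor gene (0.70), to Synpr, a synaptic vesicle protein gene (-1.24), on chromosome 14, and lies whole within Cadps, a gene of a vesicle priming factor.

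**Figure D4:**
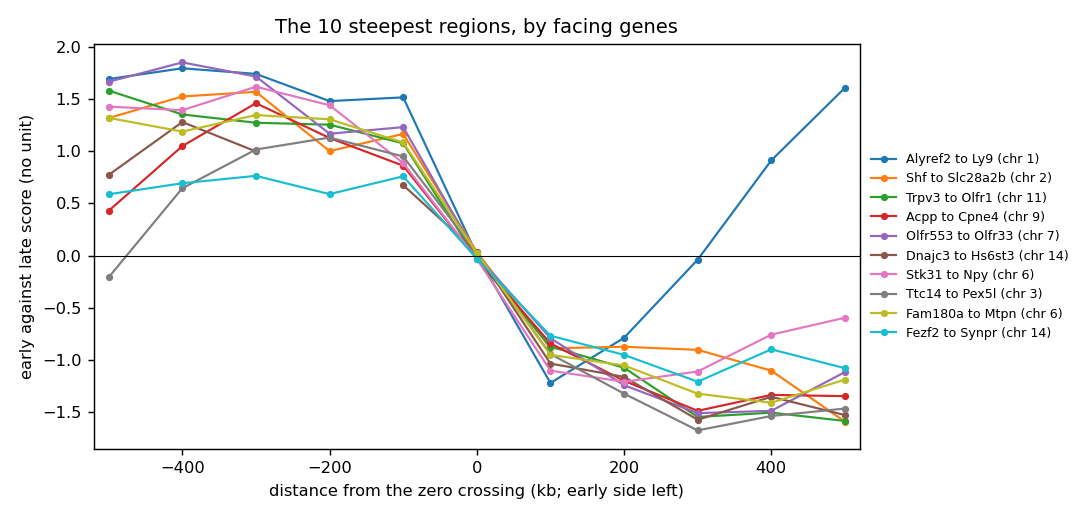
Score (no unit) every 100 kb from 500 kb on the early side to 500 kb on the late side of the zero crossing, for the 10 steepest regions, each named by its facing genes. All pass from above 0.5 to below -0.5 within 100 kb of the crossing on each side, and the Alyref2 to Ly9 region alone is back above 0 by 400 kb on the late side.

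The 5 least steep regions were all between 362 and 495 kb long and had steepness values of 0.20 per 100 kb. Their flanking scores lay close to 0.5 and -0.5, so these values follow from the 500 to 512 kb between the flanking positions. They lie on chromosome 3 between Lingo4 and Tdpoz5, on chromosome 16 between Ildr1 and Gtf2e1, on chromosome 1 between Aox2 and Maip1, on chromosome 3 between Trim45 and Gdap2, and on chromosome 1 between Tfb2m and Efcab2. The run between Ildr1 and Gtf2e1 overlaps 8 genes, among them Polq, a DNA polymerase of end joining, and Golgb1, a Golgi protein gene. The run beside Aox2 holds the aldehyde oxidase genes Aox1, Aox3 and Aox4. In the run beside Trim45 the score crossed 0 at 3 places. Efcab2 lies 327 kb beyond the late end of its run and scored 1.09, so a further timing change lies between.

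Protein-coding genes held the zero crossing of about 1 region in 3. A gene body held it in 352 of 1013 regions (34.7%, exact 95% binomial interval 31.8 to 37.8%), against 43.6% of all scored autosomal positions. With genes of every class the shares were 46.5% and 51.9%. The difference between crossings and positions was not tested, since neighbouring positions share the smoothing. The other 661 crossings had their nearest protein-coding gene at a median of 80.2 kb on the early side (quartiles 31.9 and 144 kb) and 182 kb on the late side (42.0 and 551 kb). The nearer gene was on the early side in 467 of these and on the late side in 193.

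The genes that do hold a crossing are long. There were 362 of them, 1.76% of autosomal protein-coding genes, with a median length of 189 kb against 17.5 kb for all. A long gene covers more positions and so has more chance to hold one, and weighting every gene by the positions in it gave a median of 137 kb. Over pairs of gene and region, the quantity that compares with it, the median was 195 kb. In 96 regions a gene held the whole run from first to last position, as 100 pairs formed by 99 genes, 154 to 2241 kb long. In 72 of the 100 pairs 1 end of the gene scored above 0.5 and the other below -0.5. The rule already places the scores directly beside a run above 0.5 and below -0.5. Ends on opposite sides therefore come in large part from the choice of regions. Strand was known for 78 of the 100, under the 80% needed, so the direction of transcription relative to the transition is not summarised.

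Of the longest such genes, 9 are given here, and 5 of them had an end above 0.7 and an end below -1.1. Cntnap2, a neurexin family gene of 2241 kb, scored -1.20 at its lower end and 0.75 at its upper end. Ctnna3 (alpha-T-catenin, 1574 kb) scored 1.19 and -1.33. Magi2, a synaptic scaffold gene of 1485 kb, scored -1.14 and 1.03. Tenm2, a teneurin of 1230 kb, scored 1.46 and -1.29, the largest gap of the 9. Galntl6, a glycosyltransferase family gene of 1140 kb, scored 0.90 and -1.34.

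Dlg2, a synaptic scaffold gene of 1973 kb, scored 0.86 and -0.37, and Immp2l, a mitochondrial peptidase gene of 932 kb, scored 0.50 and -0.66. Pde4d, a cyclic AMP phosphodiesterase gene of 1302 kb, scored -1.28 and 0.45. Anks1b, a synaptic protein gene of 1100 kb, scored 0.46 and 1.17, so both its ends were positive although it holds a run that passes to the late side.

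**Figure D5:**
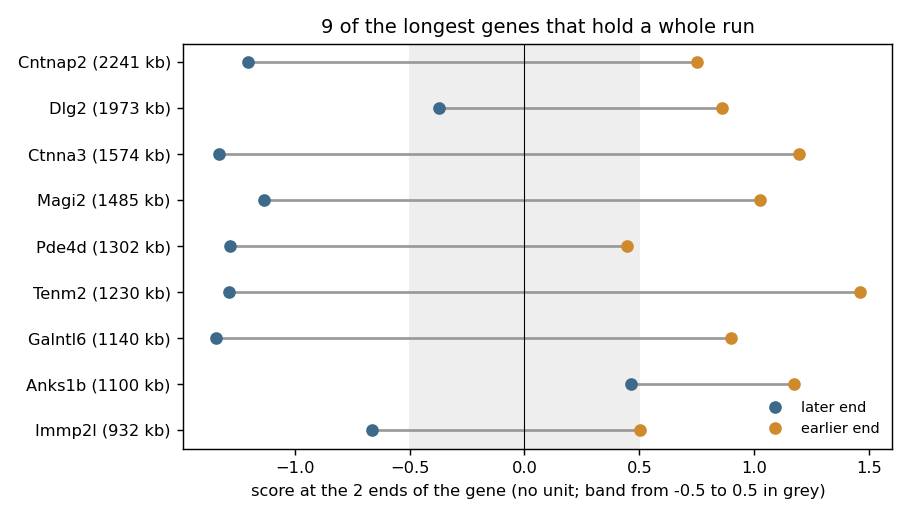
Score (no unit) at both ends of 9 of the longest protein-coding genes that hold a whole run, with gene length in kb beside the name, the later end in blue, the earlier end in orange and the band from -0.5 to 0.5 in grey. Tenm2 has the widest gap, from 1.46 to -1.29, and Anks1b has both ends above 0.

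Of all autosomal protein-coding genes, 6.46% had their midpoint inside a sharp run, 25.6% lay in an early flank and 9.81% in a late flank. None of the 26 pluripotency genes on the list lay inside a run or in a late flank, and 17 lay in an early flank. Among 45 genes of replication and S phase 1 lay inside, Orc5, which encodes part of the origin recognition complex (0.45). Of those genes 17 lay in an early and 2 in a late flank. Of 18 housekeeping genes 0 lay inside, 8 in an early flank and 0 in a late flank. Of 39 Hox genes 0 lay inside and 9 in an early flank. All of these lists were drawn up with earlier results on these cells known.

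In the mesoderm and endoderm list and in the neural list, more genes lay in early than in late flanks, as over all genes. Those inside runs scored on both sides of 0. Of 25 mesoderm and endoderm genes 4 lay inside: Sox17 (-0.28) and Gata6 (-0.40), both transcription factors of endoderm, Pdgfra (0.42) and Kdr (-0.45), growth factor receptors of mesoderm and blood vessels. Pdgfra and Kdr lie in successive regions of chromosome 5 that face each other with their late sides, with the early side at the lower coordinate for the run at Pdgfra and at the higher coordinate for the run at Kdr. Within Pdgfra the score fell from 0.68 at the lower end to 0.18 at the upper end. Another 7 genes of that list lay in an early and 1 in a late flank. Of 26 neural genes 2 lay inside, En1 (0.17), a factor of the midbrain, and Nkx6-1 (0.40), a factor of the ventral neural tube. In the neural list 5 lay in an early flank, 1 of them in a late flank as well, and 1 in a late flank alone.

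Of 17 loci known to switch timing when stem cells differentiate, 1 lay inside, Nfib (0.37), a nuclear factor I gene. Of the others 7 lay in early flanks, 5 in late flanks and 4 in neither. Sox6, a transcription factor gene of muscle, cartilage and erythroid cells and also on that list, holds a crossing: it scored -1.25 at its lower end and 1.23 at its upper end. Of 33 imprinted genes 3 lay inside, Rasgrf1 (0.32), Plagl1 (0.33) and Trappc9 (-0.33), and 8 lay in early flanks and 1 in a late flank. Trappc9 held the crossing and scored -0.56 and 1.02 at its ends. None of 54 long neuronal and fragile-site genes had its midpoint inside a run, but 12 held a crossing, where the share over all genes is 1.76%. Beyond those named above the 12 included Csmd2, Grid1 and Cdh13. The list is made of long genes, which have more chance to hold a crossing. No comparison with genes of equal length was made. Of that list 12 lay in a late and 1 in an early flank.

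The gene families showed a wider range. Of 1103 olfactory receptor genes 99 lay inside (8.98%) and 32.2% in a late flank, and of 354 vomeronasal receptor genes 38 (10.7%) and 30.8%. Keratins had 13 of 112 inside (11.6%) and 26.8% in a late flank. Cytochrome P450 genes, of drug and steroid metabolism, had 15 of 98 inside (15.3%), in pieces of arrays. In the Cyp4a array on chromosome 4 the score rose from -0.48 at Cyp4a10 to 0.22 at Cyp4a32 within 1 run. Cyp2c genes on chromosome 19 stood at -0.42 (Cyp2c68), -0.03 (Cyp2c40), 0.07 (Cyp2c69), 0.01 (Cyp2c37), 0.11 (Cyp2c54) and 0.35 (Cyp2c50) in 1 run of 420 kb. Potassium channel genes had 12 of 92 inside (13.0%), among them Kcnip1, a channel-interacting protein gene, whose ends scored 1.29 and -0.83. Members of an array share a run, so they are not independent of each other.

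Cadherins and protocadherins had the highest share inside, 17 of 95 (17.9%), but 13 of the 17 were neighbours in 1 run. These were Pcdhb10 to Pcdhb22 on chromosome 18, cell adhesion genes of neurons. They lie in a run at 37404562 to 37582860, in which the score climbed gene by gene from -0.47 at Pcdhb10 through -0.01 at Pcdhb18 to 0.11 at Pcdhb22. The Pcdha array, lower on the same chromosome, sits across the preceding region, at 36904065 to 37053667, where Pcdha1 to Pcdha10 all held the crossing. The start of Pcdha1 scored 0.30 and that of Pcdha10 -0.01, and the shared far end scored -1.19.

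The other families had shares inside from below to a little above the 6.46% over all genes. Zinc finger genes of the Zfp family had 11 of 388 inside (2.84%) and 36.1% in an early flank. Ribosomal protein genes had 2 of 92 inside, Rpl7 (0.23) and Rpl39l (0.28), and 0 in a late flank. Genes of motor proteins (kinesins, dyneins and myosins) had 1 of 88 inside. Solute carriers had 22 of 362 inside (6.08%), collagens, laminins and integrins 6 of 83 (7.23%), and Wnt, Fgf and Bmp ligands 3 of 50: Fgf2 (-0.23), Fgf20 (0.29) and Bmp5 (-0.16). Of 83 Sox, Pax, Pou and Fox factors 7 lay inside (8.43%): Sox17, Pax3 (0.05), Pax8 (0.22), Pou3f2 (-0.41), Sox14 (-0.34), Foxq1 (0.12) and Foxc1 (0.40). The histone name pattern matched 0 genes in the gene table. These counts were not tested against the share over all genes.

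In 100 regions the usual order of gene density was turned around, and tandem arrays led them. These regions were chosen after their values were seen. On chromosome 11 the run at 99331211 to 99469491 had 14 genes on the early side and 38 on the late side. It begins beside Krt25 (0.60), holds Krt26, Krt27, Krt28, Krt10, Krt12 and Krt20, and ends beside Krt23 (-0.59), all keratins of skin, hair or other epithelia. The opposite border of that late stretch is the run at 99986960 to 100101965, with 22 and 39 genes, between Krtap16-1 (-0.46), a hair keratin-associated protein gene, and Krt36 (0.55). The late flanks of these 2 runs overlap over most of their length, so their late genes are largely the same. The region at the Pcdha array had 18 and 39 genes. Olfactory receptor arrays lay beyond 2 more: on chromosome 11, between Sh3bp5l (0.86) and Olfr331 (-0.48), with 12 and 32 genes, and on chromosome 7, between Olfml1 (0.94) and Olfr473 (-0.57), with 3 and 21.

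Members of gene families also faced regions with many more genes on the early side, although how much of each early flank is an array was not counted. The region with the largest excess of early genes, on chromosome 4 between the interferon gene Ifna1 (0.65) and Mtap, a methylthioadenosine phosphorylase gene (-0.30), had 33 and 3, with Ifne inside. The run at 9242579 to 9368770 on chromosome 19 had 28 and 1, but it rests on 5 in-band positions with a gap of 74.6 kb. On chromosome 3 the run between S100a9, a calcium-binding protein gene of neutrophils (0.56), and S100a7l2 (-1.30) had 26 and 1. On chromosome 19 the run between the transporter genes Slc22a8 (1.41) and Slc22a29 (-1.26) had 28 and 3. On chromosome 7 the run between the vomeronasal receptor genes Vmn1r57 (0.53) and Vmn1r58 (-0.94) had 31 and 7. In the last 3 of these, members of 1 family scored on opposite sides of 0. The choice of regions by their counts makes these numbers a description.

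MicroRNA genes were found inside the runs at 0.649 per Mb, against 0.563 in the early flank, 0.140 in the late flank and 0.473 on all autosomes. That level rests on 1 run: of 126 miRNA genes inside, 72 lie in the run at 10426616 to 10720065 on chromosome 2, an array of Mir466 and Mir669 genes, and 54 lie elsewhere. A mature sequence was at hand for 47 of the 126, giving 67 mature miRNAs with 65 seeds. The sequences below, from RefSeq and with the seed (bases 2 to 8) in capitals, come from the run with 3 miRNA genes and from 1 of the runs with 2, and were chosen after their values were seen. The miRNAs miR-99b, let-7e and miR-125a form 1 cluster on chromosome 17, and miR-34b and miR-34c, targets of the p53 tumour suppressor, form 1 on chromosome 9.
miR-99b-5p: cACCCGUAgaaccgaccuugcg
let-7e-5p: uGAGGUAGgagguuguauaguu
miR-125a-5p: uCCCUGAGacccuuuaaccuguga
miR-34b-3p: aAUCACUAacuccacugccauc
miR-34c-3p: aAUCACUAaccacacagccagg
The chromosome 17 cluster, in the run at 17821584 to 17959464, has 3 unrelated seeds. Its genes scored 0.46, 0.43 and 0.43, on the early side of the crossing. In the printed pair from chromosome 9 both miRNAs share the seed AUCACUA. Their genes, in the run at 50916857 to 51152572, both scored -0.19, on the late side of the crossing. In each of these clusters the genes lie closer together than the median spacing of scored positions, so their near-equal scores follow from that. The 2 related clusters of the mouse genome, Mir99a with Mirlet7c-1 and Mir125b-2 on chromosome 16 and Mir100 with Mirlet7a-2 and Mir125b-1 on chromosome 9, lay in late flanks.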

How the data were processed

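Replication timing was measured from 1 early and 1 late S phase BrdU library. Per the submitters' processing notes, Bowtie2 and the build mm10 were used. The authors deposited a score for each position, made from both libraries and smoothed over 300 kb, as the table's name says. For counting, scaling, log base and zero point, the sources used here give nothing. Of 384798 positions 4 had no score, and 0 per-sample columns went unused. Whole-genome amplification and copy number can shift the score and could not be measured.

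Runs were found as given in the report, with Python 3.11.15, numpy 2.4.6, pandas 2.3.3, scipy 1.17.1 and matplotlib 3.10.9. The code was also run on simulated straight ramps without noise or smoothing, which does not test it on profiles like these. The zero crossing was interpolated between neighbouring positions. Genes (20619 protein-coding, 46820 in all on chromosomes 1 to 19) came from a RefSeq table of GRCm38.p6, and 218 autosomal rows of scaffolds and alternate sequences were left out. The table gives no strand, exons or introns. A gene belonged to a run or to a 500 kb flank by its midpoint, and took the score of the nearest position within 100 kb. Promoter summaries leave out chromosome 18 and were made only where 80% of genes had a sequence. Intervals of shares are exact binomial (Clopper-Pearson) and those of medians order-statistic, at 95%. They cover the spread over regions or genes and no experimental error.

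The regions and gene lists were chosen with earlier results of these data known. Regions named were the 10 steepest, the 5 least steep and 3 on each side of the length limit. Genes named were their neighbours and contents, the 10 longest genes that hold a run, and members of 8 lists of named genes inside a run or at a crossing. A few genes under this rule are not reported here but are included in the counts. The examples from 15 families given by name pattern and all others were chosen after their values were seen. Alternatives changed the zero point, band, length and gap limits, position spacing, flank width, gene placement and gene sets.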

Additional observations from a re-analysis of the deposited data

Results flagged for a closer look

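Chromosome X, which the autosomal regions leave out, held sharp transitions by the same rule. It had 54 of them among 131 in-band runs and 64 passages over 168 Mb, or 3.22 per 10 Mb, where the autosomes ranged from 3.33 to 5.84. The median run length was 201 kb and the median steepness 0.47 per 100 kb, with a highest value of 1.30. The sequence on X was not otherwise used.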

How the results depend on the processing

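Counts and densities were held to a factor of 1.5, and medians and shares to the 95% interval of the reported value. By these limits 68 of 78 alternative values stayed and 10 moved, and the cause was not tested. A change of direction was not looked for. Within the factor of 1.5, genes per Mb inside the runs went from 6.85 to 9.07 when genes counted in every window they overlap, and those in late flanks from 5.03 to 3.92 without olfactory and vomeronasal receptor genes. The median run length was 175 kb when zero was moved to the autosomal median, 127 kb with a band of 0.4, 196 kb with a band of 0.6 and 155 kb with every second position. The late flank CpG ratio was 0.275 with a band of 0.4, 0.217 and 0.337 with flanks of 250 and 1000 kb, and 0.351 without olfactory and vomeronasal receptor genes. The early flank ratio was 0.667 with flanks of 1000 kb. The zero crossing lay in a gene in 46.5% of regions when all annotated genes counted. The number of regions ran from 900 with a band of 0.6 to 1154 with a band of 0.4. With zero at that median there were 1008, which overlapped 848 of the 1013 (83.7%), so the deposited zero point decides part of the membership. The early flank ratio at 250 kb was not run, because too few genes had a promoter sequence. No paired analysis was possible because there was 1 library per fraction, without replicate numbers. Without replicates the error of each position is unknown, the 300 kb smoothing limits steepness, and a reversed sign would exchange early and late throughout.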

Other observations

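Genes of other classes also differed between the sides of the regions. Of 386 autosomal tRNA genes 203 lay in an early flank, 5 inside a run and 9 in a late flank. Counted once for every window they lay in, there were 228, 5 and 10. Per Mb of window these counts gave 0.452, 0.0257 and 0.0198, against 0.161 on all autosomes. Most of those in early flanks came from few places: the flanks with most held 45, 34 and 25 tRNA genes on chromosome 13 and 25 on chromosome 1. The flank on chromosome 1 belongs to the steepest region, between Alyref2 and Ly9. Of the tRNA genes inside runs 3 lay in the run between Acpp and Cpne4. Variable segments of antigen receptors lay the other way: of 374, 5 were in an early flank, 9 inside and 93 in a late flank. Per Mb of window this was 0.00991, 0.0463 and 0.184, against 0.156 on all autosomes. The late flanks were thus near the autosomal level, and most of their segments came from the few arrays that follow. On chromosome 14 the late flank of the run at 53965070 to 54097416 held 38 of them, among them Trav8-1. On chromosome 12 the run at 113345077 to 113437035 had 22, beginning with Ighv5-2. On chromosome 6 both borders of the immunoglobulin kappa array fell in sharp regions, with 12 segments in the late flank of the lower run and 19 in that of the upper run, and with 2 and 5 segments inside. These regions were chosen after their values were seen.

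Long non-coding RNA genes stood at 6.99 per Mb in early flanks, 5.88 inside and 4.43 in late flanks, against 5.14 on all autosomes. Pseudogenes stood at 4.25, 4.25 and 3.47 per Mb, against 3.67, and snoRNA genes at 0.635, 0.376 and 0.376, against 0.532. The Mir302 and Mir367 genes, a miRNA cluster of pluripotent cells on chromosome 3, lay in the early flank of the sharp regions on both sides of it. The 2 runs are at 126996875 to 127255553 and at 127715593 to 127928597, 259 and 213 kb long.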
